A study of Saccharomyces cerevisiae with 16 samples.

Results

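The genes described here are the 11th to 20th open reading frames (ORFs) counted inward from the end of every chromosome arm of budding yeast, the zone that flanks the subtelomeres. They were found from the systematic ORF names: within an arm the distinct 3-digit numbers in the table were ranked from the highest (1) down, and ranks 11 to 20 were kept. Those ranks held 330 ORFs on 32 arms. The 20 that belong to families left out by name (PAU, HXT, FLO, THI, PHO, FIT, FRE, ARN, RPL, RPS, MRPL and SUL1) were removed, which left 310 members of 6074 genes. Of these, 266 had 3 or 4 array values in each mutant and could be tested, among 5147 genes tested in all. The other 44 had no value at all in at least 1 mutant. The rank is a count of names and not a distance, because no coordinates were used.

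Transcript levels of 4 mutants were measured on 16 spotted 2-colour ORF arrays, 4 for each of set1htz1sir2 (no SET1, HTZ1 or SIR2), set1htz1 (no SET1 or HTZ1), H3K4A (alanine in place of lysine 4 of histone H3) and set1 (no SET1), each set against wild type. Per the deposited description, mutant and paired wild-type cultures were independent biological replicates, collected in exponential growth in rich medium at an OD600 of 0.7. The mutant carried Cy5 on arrays 1 and 3 and Cy3 on arrays 2 and 4 of every group. The RNA labelled for H3K4A was total RNA by that description and polyA RNA by the labels, so a difference between H3K4A and another mutant cannot be told apart from a difference in RNA input. The sources used here do not give the strain background, the number of clones or the mating type.

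In budding yeast the Sir proteins spread inward from telomeres and silence the genes they cover, with Sir2 removing acetyl groups from histones. H2A.Z, the histone variant encoded by HTZ1, is enriched next to silent regions and is known to keep silencing from spreading into them. Set1 methylates lysine 4 of histone H3, a mark of active chromatin that Sir proteins bind poorly. Genes that lie just inside the silent ends are therefore of interest for falls when HTZ1 is lost and for their return when SIR2 is removed as well.

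Every value is a log2 ratio of mutant over wild type, so 1 is a doubling and -1 a halving. A rise or fall is a limma call at a Benjamini-Hochberg adjusted p under 0.05 over all genes tested. Errors after ± are the SD over arrays where an n is given, and otherwise limma's standard error. Between 266 and 293 members had a value on each array, array medians lay from -0.04 to 0.03, and the number of arrays limits the precision. SET1 stood at -2.31, -2.34 and -2.67 in set1htz1sir2, set1htz1 and set1 and at -0.14 in H3K4A, and SIR2 at -2.44 in set1htz1sir2. HTZ1 averaged -2.94 in set1htz1 and had no value in set1htz1sir2.

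In set1htz1sir2, set1htz1 and set1 the zone held both rises and falls, at shares close to those of the genome, and in H3K4A it held rises alone by the limma call. In set1htz1sir2 61 members rose and 71 fell, 22.9% and 26.7% of the 266 tested, beside 24.1% and 26.3% of all genes tested (50.4% in either direction). In set1htz1 64 rose and 60 fell, 24.1% and 22.6%, beside 21.2% and 26.3% of all genes (47.5%). In H3K4A 14 rose, 5.26%, beside 3.59%, and limma called 0 falls, beside 0.602% of all genes (4.2% in either direction), although 21 members were lower at an unadjusted p under 0.05. In set1 28 rose and 25 fell, 10.5% and 9.4%, beside 9.05% and 9.79% (18.8%). Calls with the same sign on every array made up 48.5% of the tested members in set1htz1sir2, 44.0% in set1htz1, 5.26% in H3K4A and 17.3% in set1, beside 48.2%, 44.5%, 3.96% and 14.6% of all genes tested. The median member lay at -0.01 in set1htz1sir2, 0.00 in set1htz1, -0.02 in H3K4A and -0.03 in set1, against -0.03, -0.04, -0.02 and -0.02 over all genes tested. With the spread of the arrays equalised, the H3K4A counts became 33 rises and 18 falls by quantile normalization and 34 rises and 18 falls by scaling to a common median absolute deviation. The shares of all genes called under these normalizations were not counted, so these counts cannot be set beside the genome.

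Rises made up a larger share of the ORFs nearer the chromosome ends than of the members, as a description, since zones were not tested against each other. The other zones and the shares of all genes keep the families that were left out of the members by name. With those families kept in at ranks 11 to 20, rises numbered 69 of 284 in set1htz1sir2, 69 in set1htz1, 16 in H3K4A and 32 in set1. Among ranks 1 to 5, 6 to 10, 11 to 20 (the members), 21 to 30 and above 30, the share of genes that rose in set1htz1 was 53.5%, 41.2%, 24.1%, 15.1% and 19.7%. The share that fell there was 10.2%, 16%, 22.6%, 31.0% and 27.0%. In set1htz1sir2 the shares of rises in the same order were 48.8%, 45.8%, 22.9%, 18.8% and 23.1%. In set1 they were 40.9%, 28.2%, 10.5%, 7.01% and 7.43%, and in H3K4A 17.3%, 17.6%, 5.26%, 3.32% and 2.65%. In each mutant the 2 highest shares of rises were those of ranks 1 to 5 and 6 to 10. For counts at the edges of the zone these families were left out at every rank. At rank 11, 7 of 23 tested members rose in set1htz1 and 3 fell, beside 8 and 7 of 24 ORFs at rank 10. At rank 20, 4 of 28 members rose and 8 fell, beside 4 and 9 of 25 ORFs at rank 21.

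**Figure D1:**
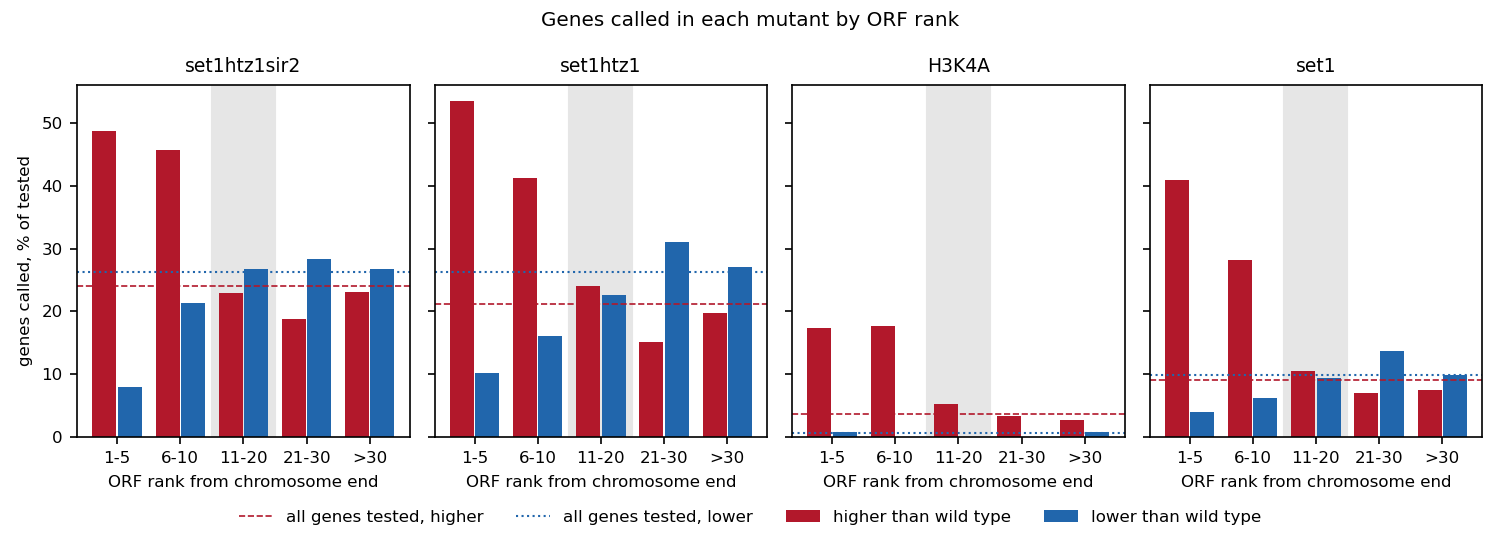
Bars give the percent of tested genes called higher (red) and lower (blue) than wild type against ORF rank from the chromosome end, 1 panel for each mutant; grey shading marks the members and the dashed and dotted lines give the shares over all genes tested. In set1htz1 24.1% of members were higher, close to the 21.2% of all genes, while 53.5% of ranks 1 to 5 were higher. Only the members leave out the families removed by name.

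Of the 266 tested members, 188 were called in at least 1 mutant, 70.7% beside 69.3% of all genes. HPF1 and YBL094C rose in all 4 mutants, 0.752% of members beside 1.15% of all genes. Lower in all 4 were 0 members by limma, and 3 at an unadjusted p under 0.05. Higher in both set1htz1sir2 and set1htz1 were 41 members (15.4%, beside 14.2% of all genes), and lower in both were another 41 (15.4%, beside 17%). Higher in both set1htz1 and set1 were 20 members (7.52%, beside 6.0%), and lower in both 15 (5.64%, beside 6.39%). Called changes of more than 2-fold were 14 rises and 7 falls in set1htz1sir2, 7 and 2 in set1htz1, 2 and 0 in H3K4A, and 3 and 0 in set1. They made up 7.89%, 3.38%, 0.752% and 1.13% of the tested members, beside 5.96%, 3.17%, 0.214% and 0.68% of all genes tested. The 0 falls beyond 2-fold in H3K4A and set1 stand beside 1 and 3 over all genes tested.

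HPF1 on XVL encodes a cell wall mannoprotein. Its log2 ratios on arrays 1 to 4 were 2.87, 2.4, 3.14 and 2.48 in set1htz1sir2, 1.27, 0.76, 1.7 and 1.56 in set1htz1, 1.33, 1.38, 1.67 and 1.66 in H3K4A, and 1.71, 0.84, 1.49 and 0.89 in set1. All 16 arrays were above 0, and the set1htz1sir2 arrays lay above every other array. The rise was 2.72 ± 0.13 in set1htz1sir2, 1.32 ± 0.13 in set1htz1, 1.51 ± 0.13 in H3K4A and 1.23 ± 0.13 in set1 (limma adjusted p between 1.2e-11 and 3e-06). HPF1 has a close relative elsewhere in the genome, and a spotted ORF probe may not separate them.

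YNR064C on XIVR, an epoxide hydrolase, stood at 1.53, 1.52, 1.76 and 1.84 in set1htz1sir2, 1.79, 1.65, 2.43 and 2.06 in set1htz1, 0.33, 0.36, 0.46 and 0.35 in H3K4A, and 1.85, 1.22, 1.96 and 1.43 in set1. The H3K4A arrays lay below all 12 others. Its rise passed the test in the mutants that lack SET1 (1.66, 1.98 and 1.62) and not in H3K4A (0.37, limma adjusted p = 0.081), and the difference of H3K4A from set1 was -1.24 ± 0.16 (limma adjusted p = 0.00016). YBL094C on IIL, an ORF name absent from the RefSeq table, gave 0.58, 0.56, 0.56 and 0.84 in set1htz1sir2, 0.89, 1.0, 1.24 and 1.12 in set1htz1, 0.78, 0.52, 0.54 and 1.07 in H3K4A, and 1.22, 1.43, 1.46 and 1.6 in set1. It was above 0 on all 16 arrays and highest in set1.

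**Figure D2:**
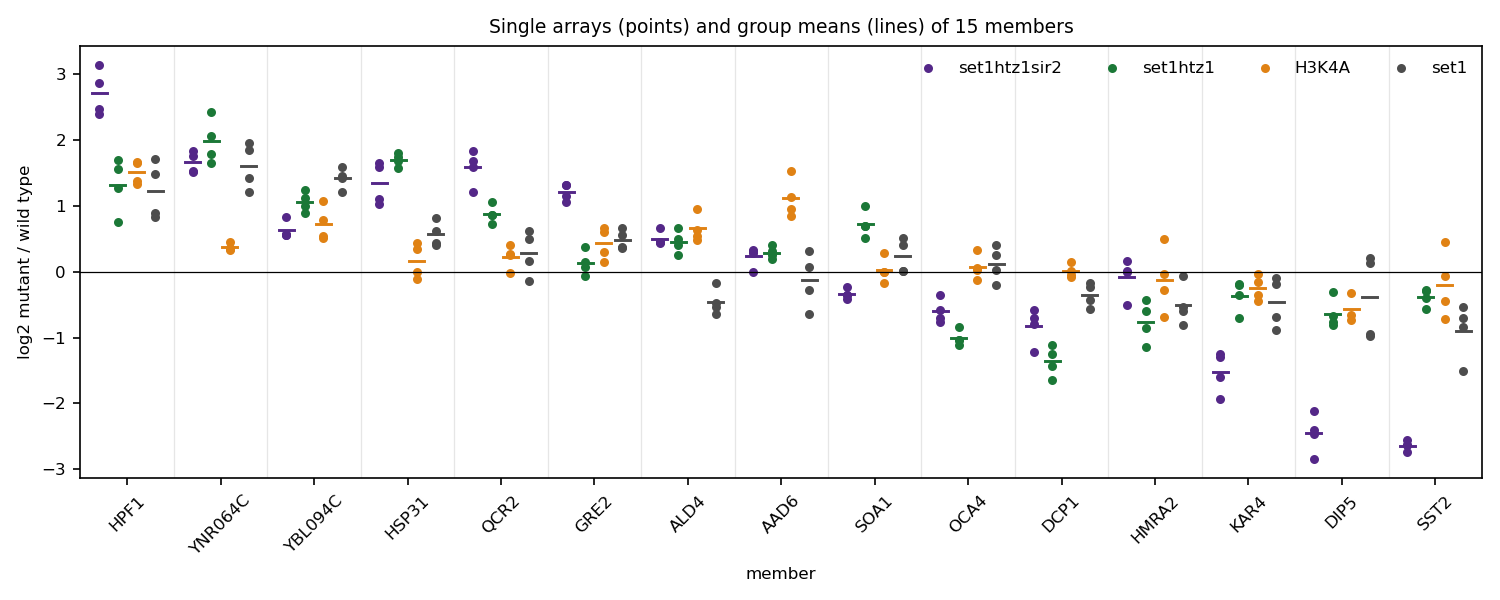
Points are single arrays and short lines group means of the log2 ratio of mutant over wild type for 15 members, coloured by mutant. HPF1 averaged 2.72 in set1htz1sir2 and lay above 0 on every array, while SST2 averaged -2.64 there and -0.38 in set1htz1.

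In set1 53 members changed. After YNR064C (1.62), YBL094C (1.43) and HPF1 (1.23), the largest rises were those of DAL1, the allantoinase of nitrogen scavenging (0.97 ± 0.13), HAB1 (0.95 ± 0.17), SFT2, a Golgi membrane protein (0.91 ± 0.19), BIO2, biotin synthase (0.77 ± 0.10), and HPA3, an acetyltransferase of D-amino acids (0.73 ± 0.12). The largest falls were those of SST2, which desensitises cells to mating pheromone (-0.90 ± 0.14), PTR2, the peptide transporter (-0.78 ± 0.10), GRX4, a glutaredoxin of iron regulation (-0.74 ± 0.10), INA22, an assembly factor of ATP synthase (-0.66 ± 0.13), YIL163C (-0.62 ± 0.09), OPT1, a glutathione transporter (-0.59 ± 0.11), SMU2 (-0.53 ± 0.12) and HMRA2 (-0.50 ± 0.16). The limma adjusted p of these lay between 1.4e-08 and 0.034. The call of HMRA2 was lost without array 1, 3 or 4 of set1 (-0.51, -0.49 and -0.38) and that of SMU2 without array 4 (-0.43). HAB1 had 3 arrays in set1, at 1.6, 0.12 and 1.36. SFT2 stood at 1.94, 0.3, 1.47 and -0.06 on arrays 1 to 4 of set1. Its values were thus higher on arrays 1 and 3, where the mutant carried Cy5, and not of 1 sign. Of the 53 calls, 46 had the same sign on every set1 array, 86.8% beside 77.7% over all genes called.

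In H3K4A the largest rises were those of HPF1 (1.51), AAD6 (1.12), YFL057C (0.78), YBL094C (0.73), ACS1 (0.73) and ALD4 (0.66). HPF1 and YBL094C were called higher in set1 as well. AAD6, an aryl-alcohol dehydrogenase of VIL, was 1.53, 0.96, 0.85 and 1.13 in H3K4A against 0.08, -0.64, 0.32 and -0.27 in set1, with no overlap of arrays and a difference of 1.25 ± 0.16 (limma adjusted p = 0.00016). Its neighbour YFL057C gave 0.49, 1.06, 0.82 and 0.74 in H3K4A and -0.2, 0.35, -0.62 and 0.52 in set1, where 1 array of set1 overlapped (difference 0.77 ± 0.18, limma adjusted p = 0.013). YFL057C is absent from the RefSeq table, and without the dye term its H3K4A call was lost (limma adjusted p = 0.056). ACS1, acetyl-CoA synthetase, stood at 0.56, 0.9, 0.87 and 0.59 in H3K4A, above the 4 set1 arrays at 0.11, -0.43, 0.18 and -0.29. ALD4, the mitochondrial acetaldehyde dehydrogenase, stood at 0.96, 0.55, 0.64 and 0.49 in H3K4A and at -0.54, -0.47, -0.17 and -0.64 in set1. ALD4 rose in H3K4A (0.66) and fell in set1 (-0.46), and its difference of 1.11 ± 0.12 passed the test (limma adjusted p = 4e-05). With only the H3K4A arrays in the fit 2 members were called against wild type, and ACS1 and ALD4 were not among them (limma adjusted p = 0.053 and 0.06).

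Set against set1 across the zone, H3K4A was higher for 11 members (4.14%, beside 4.1% of all genes) and lower for 8 (3.01%, beside 3.4%), where 7.5% of all genes differed in either direction. The remaining large differences were PTR2 at 1.0 ± 0.15 and SST2 at 0.70 ± 0.20 above set1, and DAN1 (-0.72 ± 0.18), DIM1 (-0.71 ± 0.21), YBL094C (-0.70 ± 0.14), HPA3 (-0.65 ± 0.18) and DAL3 (-0.62 ± 0.13) below it, with limma adjusted p from 0.00039 to 0.045. DAN1 is an anaerobic cell wall protein and DIM1 a methylase of ribosomal RNA. DIM1, HPA3 and SST2 lost the call without single arrays, with DIM1 at -0.43 without array 3 of set1, HPA3 at -0.49 without array 1 of set1 and SST2 at 0.51 without array 1 of H3K4A. DAN1 also lost it without array 3 of set1 (-0.56). YBL094C was not called after scaling to a common median absolute deviation (-0.26).

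Against wild type, more members were called in set1htz1 than in set1, in both directions. HSP31, a chaperone and glyoxalase of the DJ-1 family, stood at 1.81, 1.74, 1.58 and 1.69 in set1htz1 against 0.41, 0.62, 0.44 and 0.81 in set1. Its arrays did not overlap, and the difference was 1.14 ± 0.15 (limma adjusted p = 4.4e-05). PRB1, the vacuolar proteinase B, stood at 0.92, 1.65, 0.83 and 1.32 in set1htz1 against 0.18, -0.01, -0.15 and -0.43 in set1, again without overlap (difference 1.28 ± 0.17, limma adjusted p = 5.4e-05). The other large rises over wild type in set1htz1 were HAB1 at 1.23 ± 0.14, DAL1 at 1.17 ± 0.13, YBL094C at 1.06 ± 0.10 and FYV5 at 0.96 ± 0.17, besides YNR064C and HPF1. FYV5 overlaps ADF1 in the RefSeq table, and the sources used here do not say which strand its probe reads.

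Falls in set1htz1 were deepest for DCP1 and OCA4. DCP1, a subunit of the mRNA decapping enzyme, stood at -1.12, -1.43, -1.64 and -1.25 in set1htz1 against -0.43, -0.17, -0.23 and -0.56 in set1 (difference -1.01 ± 0.15, limma adjusted p = 0.00017). OCA4 on IIIR, related to protein tyrosine phosphatases, stood at -1.03, -1.03, -1.12 and -0.84 in set1htz1 against 0.03, 0.41, -0.2 and 0.26 in set1 (difference -1.13 ± 0.15, limma adjusted p = 4.7e-05). For both genes the arrays of the double mutant lay below all arrays of set1. The next falls from wild type were OPT1 at -0.87 ± 0.11, HMS2, a relative of heat shock factors, at -0.86 ± 0.12, HMRA2 at -0.76 ± 0.16, KAR9, which orients the spindle, at -0.73 ± 0.11, SPC72, a spindle pole body component, at -0.70 ± 0.13, and VNX1, a vacuolar cation exchanger, at -0.68 ± 0.11. HMS2 overlaps YJR146W in the RefSeq table.

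In the comparison of set1htz1 with set1, 26 members were higher (9.77%, beside 9.03% of all genes) and 23 lower (8.65%, beside 10.3%), where 19.3% of all genes differed in either direction. CRG1, a methyltransferase, was higher by 0.84 ± 0.15, ALD4 by 0.91 ± 0.12, FYV5 by 0.91 ± 0.24 and FMP27, a large lipid-transfer protein, by 1.03 ± 0.32. DIM1 (-0.94 ± 0.21), BIO2 (-0.79 ± 0.14), SFT2 (-0.79 ± 0.27) and SPB1, another methylase of ribosomal RNA (-0.73 ± 0.17), were lower, and limma adjusted p over these 8 ran from 6.4e-05 to 0.047. SFT2 was not called without array 1 of set1 (-0.50), FMP27 without array 3 of set1 (0.48), or FYV5 under quantile normalization (0.79). Without array 3 of set1htz1 the comparison called 30 members in place of 49, and without array 1 of set1 32.

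Compared with set1htz1, set1htz1sir2 was lower for 20 members (7.52%, beside 5.4% of all genes) and higher for 12 (4.51%, beside 7.25%). Of all genes, 12.6% differed in either direction. The 32 members called became 9 under quantile normalization and 81 with array weights. The largest differences were those of SST2 and DIP5. SST2 stood at -2.64, -2.56, -2.74 and -2.64 in set1htz1sir2 against -0.29, -0.4, -0.27 and -0.56 in set1htz1 (difference -2.26 ± 0.20, limma adjusted p = 4.1e-07). KAR4, a transcription factor of the pheromone response, stood at -1.6, -1.29, -1.94 and -1.25 in set1htz1sir2 against -0.36, -0.2, -0.71 and -0.18 in set1htz1 (difference -1.16 ± 0.15, limma adjusted p = 3e-05). Neither gene's arrays overlapped between the mutants. Of 9 tested genes on the list of haploid markers, 8 fell in set1htz1sir2, with values from -2.9 to -0.11 and a median of -1.39, and 2 fell in set1htz1, where the median was -0.07. The alpha-specific SAG1 was at -4.96 in set1htz1sir2, STE3 averaged -4.85 and MF(ALPHA)1 was at the lowest value of the table. STE6, an a-specific pheromone exporter and a member on XIL, was at -0.05. The part of these markers in the falls of SST2 and KAR4 was not tested.

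DIP5, the permease for glutamate and aspartate on XVIL, stood at -2.4, -2.47, -2.12 and -2.84 in set1htz1sir2 against -0.67, -0.76, -0.3 and -0.81 in set1htz1 (difference -1.82 ± 0.20, limma adjusted p = 5.8e-06). SOA1, a transporter of sulfur compounds on IXL, stood at -0.36, -0.42, -0.23 and -0.36 in set1htz1sir2 against 0.69, 0.69, 1.0 and 0.52 in set1htz1, and was the only tested member called in opposite directions in these mutants (difference -1.07 ± 0.12, limma adjusted p = 6.1e-06). BRR2, the helicase of the spliceosome, differed by -1.22 ± 0.25 and YJL213W by -0.82 ± 0.20. Under quantile normalization the differences of BRR2 (-1.05) and YJL213W (-0.64) were no longer called. The other deep falls from wild type in set1htz1sir2 were CNE1, the calnexin of the endoplasmic reticulum (-1.06 ± 0.10), BAT2, the cytosolic branched-chain aminotransferase (-1.04 ± 0.11), VNX1 (-1.04 ± 0.11) and BRE4 (-0.89 ± 0.11).

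The largest positive differences of set1htz1sir2 from set1htz1 were on XVL. HPF1 was higher in set1htz1sir2 by 1.4 ± 0.18, YOL150C by 1.30 ± 0.28 and GRE2, a stress-induced methylglyoxal reductase, by 1.08 ± 0.13 (limma adjusted p = 3.1e-05, 0.0053 and 1.2e-05). GRE2 stood at 1.32, 1.32, 1.15 and 1.06 in set1htz1sir2 against 0.07, 0.15, 0.37 and -0.06 in set1htz1. The YOL150C arrays stood at 1.1, 1.4, 1.14 and 1.29 in set1htz1sir2 against 0.29, 0.43, -1.0 and 0.03 in set1htz1, with array 3 of the double mutant apart from its others. QCR2 and QCR7, both subunits of respiratory complex III, were higher by 0.71 ± 0.16 and 0.74 ± 0.19, and RPO26, a subunit shared by the RNA polymerases, by 0.62 ± 0.14. QCR2, QCR7 and RPO26 were not called under quantile normalization (0.49, 0.49 and 0.52), and QCR7 was not called without array 3 of set1htz1, array 1 of set1htz1sir2 or array 3 of set1htz1sir2 (0.64 to 0.68). YOL150C, an ORF name absent from the RefSeq table, was not called under quantile normalization (1.01). Without array 3 of set1htz1, array 1 of set1htz1sir2 or array 3 of set1htz1sir2 the comparison called 18, 18 and 17 members in place of 32.

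Among the 60 members that fell in set1htz1, 3 were also called higher in set1htz1sir2 than in set1htz1, 5.0% beside 10.7% of the 1352 genes that fell in set1htz1. They were DCP1, CBT1 and IRC6. DCP1 was at -0.82 in set1htz1sir2 and -1.36 in set1htz1 (difference 0.54, limma adjusted p = 0.025), CBT1 at 0.11 and -0.40 (0.52, 0.024) and IRC6 at -0.13 and -0.59 (0.46, 0.037). DCP1 remained lower than wild type in the triple mutant. The reverse, a rise in set1htz1 with a lower value in set1htz1sir2, was called for 7 of the 64 members that rose, 10.9% beside 12.4% of 1093 genes: AIM2, YAR040C, YBL096C, YBL094C, AQY3, SOA1 and AMF1. In both counts the set1htz1 arrays enter each of the comparisons, so error in them favours such pairs, and these genes were picked out after their values were seen.

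**Figure D3:**
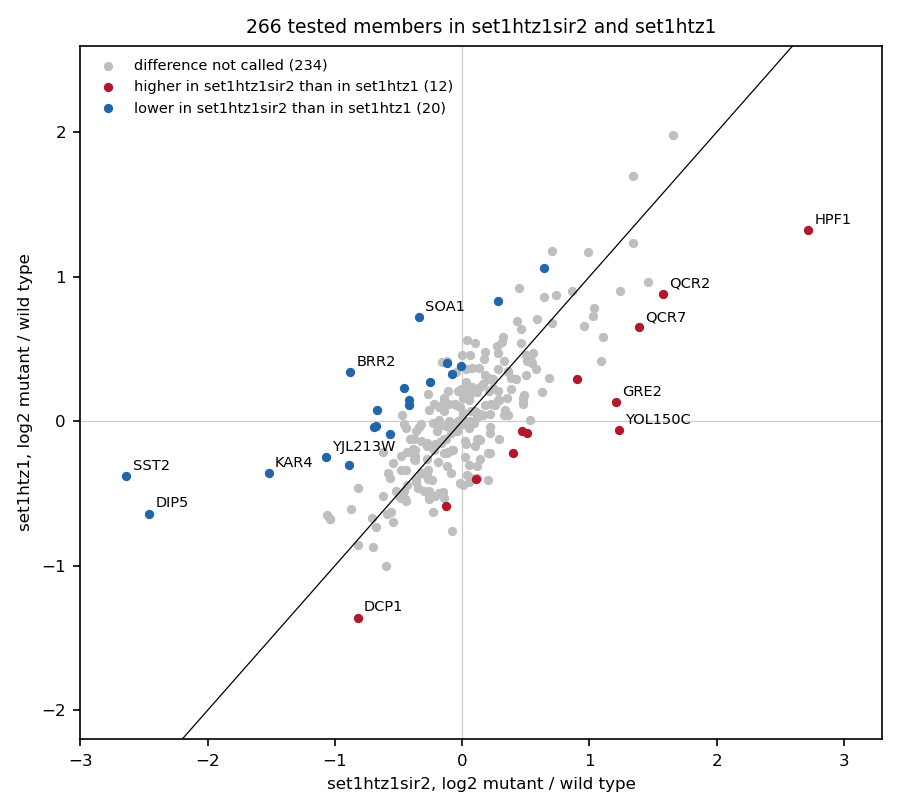
Each point is 1 of 266 tested members, with its fitted log2 ratio to wild type in set1htz1sir2 (x) and set1htz1 (y); the line marks equal values, and colours mark the 12 members called higher and the 20 called lower in set1htz1sir2 than in set1htz1. SST2, DIP5 and KAR4 lie far left of the line, HPF1, GRE2 and YOL150C right of it.

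BIO2, ALD4, SMN1, SOA1 and YMR306CA were called higher in 1 mutant and lower in another, 1.88% of members beside 3.3% of all genes. BIO2 was at -0.32 in set1htz1sir2, -0.02 in set1htz1, 0.37 in H3K4A and 0.77 in set1. SMN1 fell in set1htz1sir2 (-0.34) and rose in set1 (0.26), and YMR306CA fell in set1htz1sir2 (-0.42) and rose in H3K4A (0.51). The H3K4A calls of BIO2 and YMR306CA, the set1 call of SMN1 and the set1htz1sir2 calls of BIO2 and YMR306CA were each lost without single arrays, with H3K4A values of BIO2 at 0.26 without array 1 and of YMR306CA at 0.42 without array 2. YMR306CA is absent from the RefSeq table.

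By arm, members rose on 25 arms and fell on 29 in set1htz1sir2, rose on 27 and fell on 26 in set1htz1, rose on 9 in H3K4A, and rose on 17 and fell on 18 in set1. On 22 arms both directions occurred in set1htz1sir2, and likewise on 22 in set1htz1 and 8 in set1. The highest median over an arm was that of XVL in set1htz1sir2 (0.54), H3K4A (0.31) and set1 (0.24) and that of VIL in set1htz1 (0.31). The lowest were VR in set1htz1sir2 (-0.32), XIVL in set1htz1 (-0.27), XIIR in H3K4A (-0.20) and VIIL in set1 (-0.29, 1 member). Arms were not tested against each other.

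**Figure D4:**
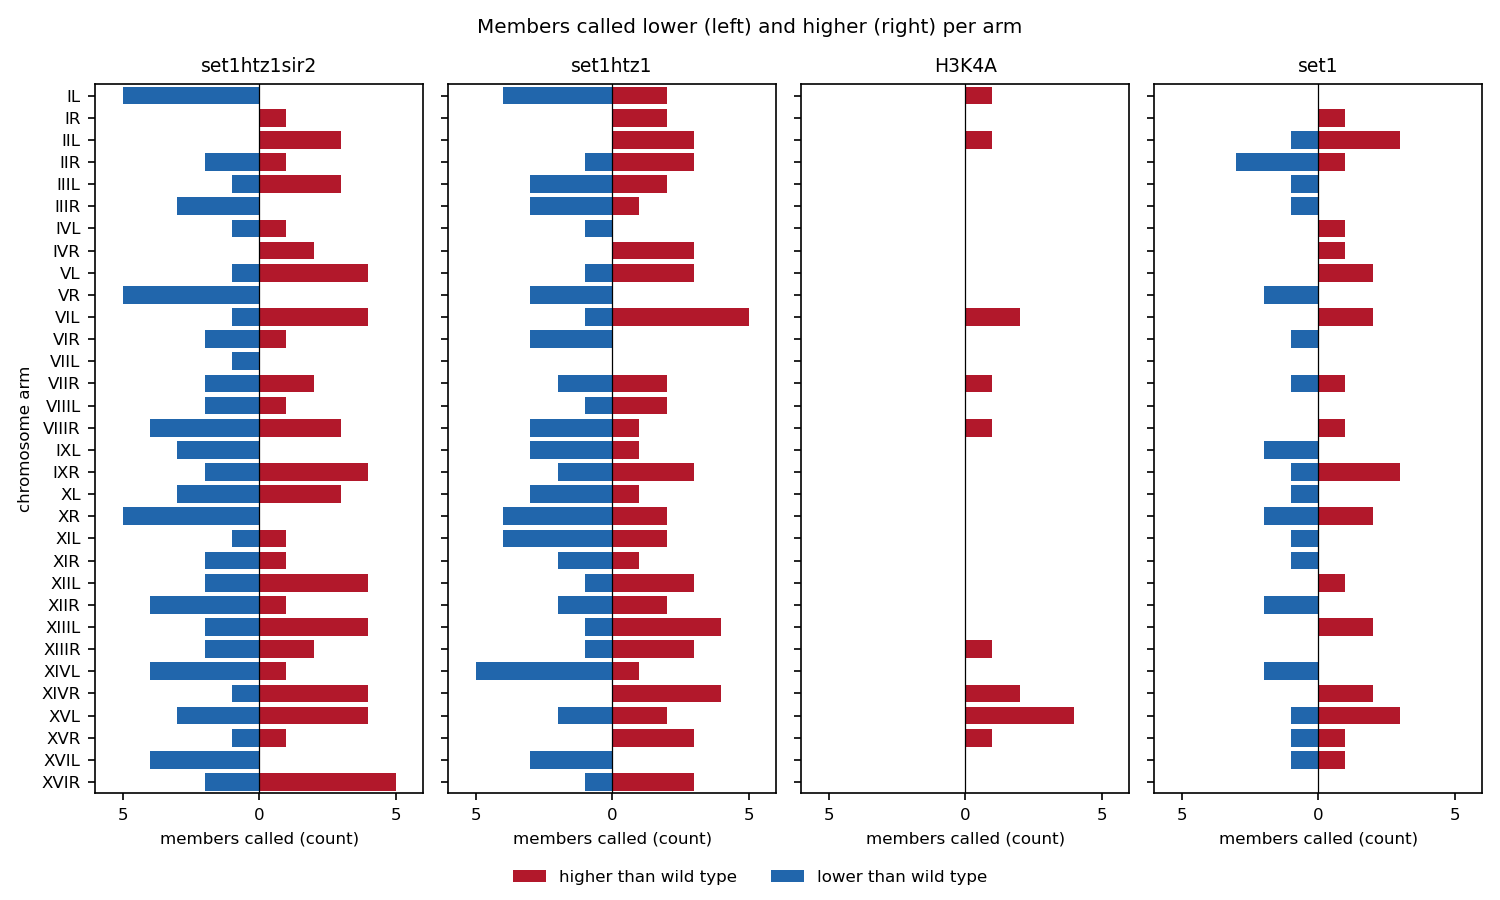
Bars count the members of each chromosome arm called lower (left of 0, blue) and higher (right of 0, red) than wild type, 1 panel for each mutant. XVL had 4 rises in set1htz1sir2 and 4 in H3K4A, and XR and VR had 5 falls each in set1htz1sir2.

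On IL, 3 neighbours fell in set1htz1sir2 and in set1htz1: YAL058CA (-0.57 and -0.39), CNE1 (-1.06 and -0.65) and GPB2, an inhibitor of protein kinase A signalling (-0.59 and -0.64). SPC72 fell in both as well, GEM1 in set1htz1sir2 alone (-0.69), and ACS1 rose in H3K4A. CNE1 stood at -1.12, -1.03, -0.97 and -1.12 in set1htz1sir2 and -0.47, -0.62, -0.81 and -0.71 in set1htz1. IR had 4 tested members of 9, of which YAR053W rose in set1htz1sir2 (0.71), set1htz1 (0.68) and set1 (0.57). IIL held rises of YBL094C and of YBL100C (1.24 in set1htz1sir2, 0.90 in set1htz1 and 0.26 in set1). YBL100C too is absent from the RefSeq table, so its overlap with other genes, such as ATP1 at the next rank inward, could not be checked. The same holds for YAL058CA and YAR053W. IIR held APE3, HAB1 and YBR284W, a run of 3 rises in set1htz1 (0.43, 1.23 and 0.29), of which HAB1 alone was called in set1htz1sir2 (1.34). The call of YBR284W was lost without array 1, 2 or 3 of set1htz1, at 0.26 without array 3. APE3 stood at 0.81, 0.1, 0.7 and 0.1 in set1htz1, and its call was lost without the dye term (limma adjusted p = 0.07).

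The arms of chromosome III flank the silent mating loci. On IIIL, FYV5, PRD1 and PEX34 rose side by side in set1htz1sir2 (1.46, 0.55 and 0.35), and KAR4 fell in set1htz1sir2, set1htz1 and set1 (-1.52, -0.36 and -0.46). On IIIR, HMRA2, OCA4 and CDC50 fell side by side in set1htz1 (-0.76, -1.0 and -0.42). HMRA2 is the a2 gene copy at the silent HMR locus and shares sequence with the MAT locus. Mating type and probe sequences are not given, so the locus that its probe read cannot be told. Its arrays stood at 0.16, 0.0, 0.01 and -0.51 in set1htz1sir2 against -0.43, -0.86, -1.15 and -0.6 in set1htz1, where 1 array of the triple mutant lay among those of the double mutant. The difference of 0.68 ± 0.23 did not pass the test (limma adjusted p = 0.057). OCA4 (-0.60), CDC50, a partner of lipid flippases (-0.36), and MSH3, a mismatch repair protein (-0.38), fell in set1htz1sir2.

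IVL had few calls, with BRE4 lower in set1htz1sir2 (-0.89) and set1htz1 (-0.30) and PTP1, a tyrosine phosphatase, higher in set1htz1sir2 (0.48) and set1 (0.47). IVR held the rises of HSP31 and QCR7. QCR7 stood at 1.5, 1.22, 1.6 and 1.25 in set1htz1sir2, 0.6, 0.78, 0.3 and 0.92 in set1htz1, and from -0.4 to 0.36 in H3K4A and from -0.32 to 0.34 in set1. On VL, YEL067C and HPA3, which overlap in the RefSeq table, rose in set1htz1sir2 (0.24 and 0.86), set1htz1 (0.23 and 0.90) and set1 (0.30 and 0.73), and PRB1 rose in set1htz1sir2 (0.71) and set1htz1. VR held falls and no rise in any mutant. RAD24, a checkpoint protein, BRR2 and RAD3, the helicase of excision repair, fell side by side in set1htz1sir2 (-0.27, -0.88 and -0.56), and the call of RAD24 was lost without array 2 or 4 (-0.24 and -0.26).

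VIL carried the longest run of the zone. AAD6, AGP3, AQY3, DAK2 and YFL051C, consecutive among tested members, rose in set1htz1 by 0.29, 0.34, 0.83, 0.52 and 0.86, and all but AAD6 rose in set1htz1sir2, by 0.36, 0.28, 0.27 and 0.64. AGP3 is an amino acid permease, AQY3 a water and glycerol channel and DAK2 a dihydroxyacetone kinase. AQY3 stood at 0.1, 0.26, 0.42 and 0.36 in set1htz1sir2 against 0.65, 1.0, 0.86 and 0.81 in set1htz1, without overlap. AAD6 lost its set1htz1 call without array 2, 3 or 4 (0.24 to 0.29), and in set1htz1sir2 AGP3 lost it without array 2 (0.25), AQY3 without array 3 (0.21) and DAK2 without array 2, 3 or 4 (0.25 to 0.27). SWP82, a SWI/SNF subunit and the innermost member of the arm, fell in set1htz1sir2 (-0.58) and set1htz1 (-0.36).

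On VIR, IRC6, ERJ5 and SAP155 fell side by side in set1htz1 (-0.59, -0.44 and -0.53). VIIL could hardly be read: 9 of its 10 members had no value on any set1 array, and SEC15, an exocyst subunit, was called in set1htz1sir2 (-0.32) and lost the call whichever of the 4 arrays was left out (-0.30 to -0.33). VIIR held rises of ERV29, a cargo receptor (0.46 in set1htz1sir2 and 0.64 in set1htz1), and BGL2, a cell wall glucanosyltransferase (0.56 and 0.47). VIIIL had GUT1, glycerol kinase, lower in set1htz1sir2 (-0.48) and MUP3, a methionine permease, higher in set1htz1 (0.48). VIIIR held rises of CRG1 in set1htz1sir2 (1.04), set1htz1 (0.78) and H3K4A (0.60) and a run of falls in set1htz1sir2, MNL1, SMN1 and PPX1 (-0.44, -0.34 and -0.50).

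IXL held SUC2, invertase, lower in set1htz1sir2 (-0.62) and set1htz1 (-0.52), and YIL163C lower in set1htz1sir2, set1htz1 and set1 (-0.71, -0.67 and -0.62). IXR carries the DAL gene cluster for use of allantoin as a nitrogen source. DAL1 stood at 0.99, 0.94, 1.2 and 0.84 in set1htz1sir2, 0.73, 1.4, 1.55 and 1.0 in set1htz1, 0.28, 0.42, 0.44 and 0.25 in H3K4A, and 1.15, 0.41, 1.52 and 0.81 in set1. It was above 0 on all 16 arrays and was called in the mutants that lack SET1. DCG1 rose in the same mutants (0.59, 0.71 and 0.44), DAL3 in set1htz1sir2 (0.49) and set1 (0.59), and DAL4, the allantoin permease, in set1htz1sir2 (0.38) and set1htz1 (0.30). Of the 10 tested members of IXR, 7 were called in at least 1 mutant, beside 69.3% of all genes. DAL2 and DAL7 of the cluster were called in none. DAL5, an allantoate permease on another arm, XR, fell in set1htz1sir2 (-0.27).

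XL held OPT1, lower in set1htz1sir2, set1htz1 and set1 (-0.70, -0.87 and -0.59), with YJL213W lower (-1.07) and YJL206C higher (1.09) in set1htz1sir2. On XR, BAT2, HMS2, YJR146W and MGM101 fell side by side in set1htz1 (-0.68, -0.86, -0.38 and -0.52), and the first 3 of them in set1htz1sir2 (-1.04, -0.82 and -0.28). BAT2 stood at -0.94, -0.92, -1.09 and -1.22 in set1htz1sir2 and -0.51, -0.76, -0.76 and -0.67 in set1htz1 against 0.07, -0.62, 0.38 and -0.58 in set1, which overlapped set1htz1 and not set1htz1sir2. YJR146W lost its calls without array 1 of set1htz1 (-0.24) and without array 2, 3 or 4 of set1htz1sir2 (-0.24 to -0.28). DAN1 rose in set1htz1 (0.46) and set1 (0.59).

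XIL had CBT1, EMC3 and ADD66 lower side by side in set1htz1 (-0.40, -0.61 and -0.42), and EMC3, a membrane protein insertase subunit, in set1htz1sir2 (-0.87) and set1 (-0.30). XIR had SRL3 higher in set1htz1sir2 (0.74) and set1htz1 (0.87), ESL2 lower in both (-0.82 and -0.46) and PTR2 lower in set1. XIIL showed COF1, LDB18 and YBT1, a bile acid transporter, higher side by side in set1htz1sir2 (0.96, 0.29 and 0.38). LDB18 and YBT1 lost the call without array 3 (0.24 and 0.21), LDB18 also without array 2 or 4 (0.27 and 0.30) and YBT1 without array 1 (0.36). XIIR showed RIF2, SST2, LEU3 and HMG2 lower side by side in set1htz1sir2 (-0.54, -2.64, -0.32 and -0.46). RIF2 limits telomere length, LEU3 regulates leucine synthesis and HMG2 is an HMG-CoA reductase. RIF2 lost the call without array 4 (-0.47), HMG2 without array 3 (-0.42) and LEU3 whichever of the 4 arrays was left out (-0.26 to -0.34).

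XIIIL carried NDI1, the internal NADH dehydrogenase of mitochondria, YML119W and NGL3 as a run of rises in set1htz1sir2 (1.11, 0.42 and 0.31) and set1htz1 (0.58, 0.29 and 0.55). NDI1 stood at 0.82, 0.74, 1.81 and 1.06 in set1htz1sir2 and 0.41, 0.76, 0.54 and 0.6 in set1htz1, with 1 array of the triple mutant inside the range of the double. NGL3 lost the call in set1htz1sir2 without array 1 or 3 (0.32 and 0.26) and YML119W in set1htz1 without array 4 (0.22). XIIIR had YMR316CA, DIA1 and YMR315W higher side by side in set1htz1 (0.42, 0.37 and 0.54), where YMR316CA and DIA1 overlap in the RefSeq table and DIA1 lost the call without array 2 or 3 (0.35 and 0.30). XIVL leaned to falls, 4 in set1htz1sir2 and 5 in set1htz1, including VNX1 (-1.04 and -0.68) and LEM3, a flippase subunit (-0.45 and -0.54). XIVR leaned to rises, with YNR064C, PUL4 and PUL3 as a run in set1htz1 (1.98, 0.42 and 0.36).

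XVL had at least 1 call for each of its 8 members, where 69.3% of all genes tested were called in at least 1 mutant. In set1htz1sir2 HPF1, GRE2, YOL150C and PEX11, a peroxisome proliferation protein (1.03), rose while YOL153C (-0.23), DCP1 (-0.82) and SPT20, a SAGA subunit (-0.46), fell. PEX11 also rose in set1htz1 (0.73) and H3K4A (0.48), and ZPS1 in H3K4A (0.45) and set1 (0.46). XVR had 6 members, with ALD4 higher in set1htz1sir2 (0.50), set1htz1 (0.46) and H3K4A. XVIL had falls of KAR9 (-0.68 and -0.73), PLC1, phospholipase C (-0.44 and -0.55), and DIP5 in set1htz1sir2 and set1htz1. XVIR had a call for each of its 10 members, all in set1htz1sir2 or set1htz1, beside the same 69.3% of all genes. QCR2 stood at 1.21, 1.6, 1.69 and 1.84 in set1htz1sir2, 0.72, 1.06, 0.86 and 0.86 in set1htz1, -0.02 to 0.4 in H3K4A and -0.14 to 0.62 in set1, so that the arrays of the triple mutant lay above those of the double.

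**Figure D5:**
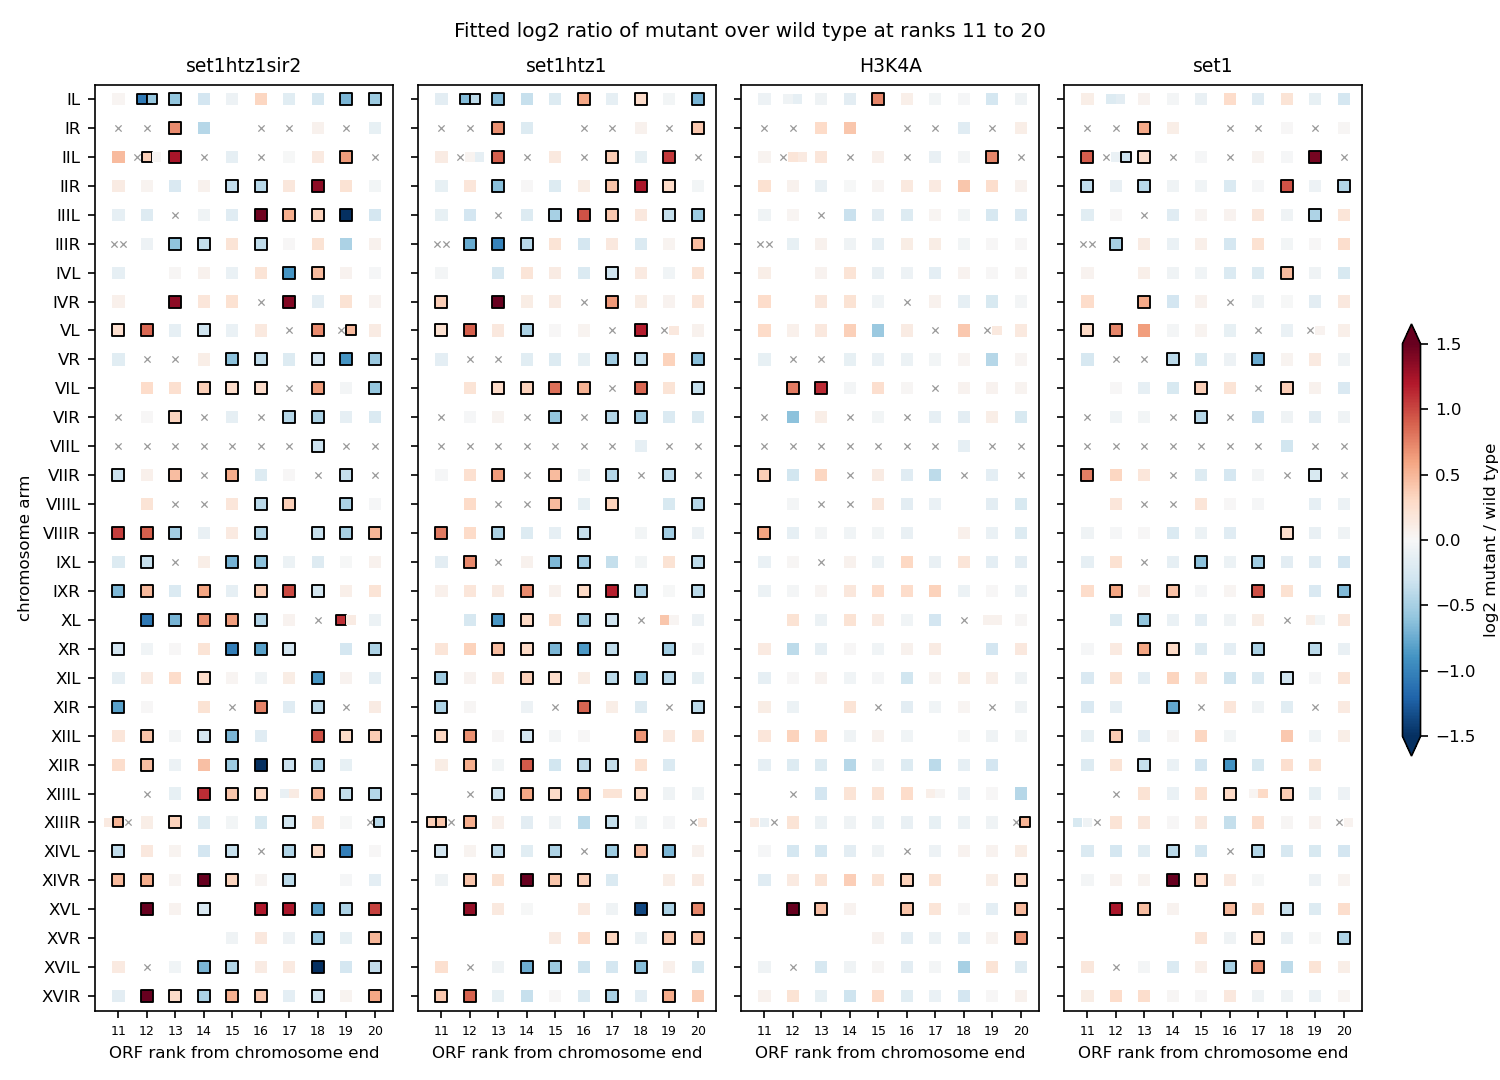
Squares show the fitted log2 ratio of mutant over wild type for each tested member by chromosome arm (rows) and ORF rank from the end (columns), red above and blue below 0, with a black edge where limma called it; crosses are members not tested, narrow squares share a rank and blanks are ORFs left out by family name. The 5 red squares of VIL in set1htz1 and the 4 blue squares of XR are the longest runs in that mutant.

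Adjacent calls were about as common as elsewhere. A called member had its next tested ORF inward called the same way in 36.8% of 117 cases in set1htz1sir2, beside 32.5% over all ranked ORFs, in 38.2% of 110 in set1htz1, beside 32.4%, in 22.2% of 9 in H3K4A, beside 14.1%, and in 10.4% of 48 in set1, beside 16.9%. Neighbouring probes were spotted and hybridised on the same arrays, so adjacent members are not independent measurements.

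By role, the members fell into small groups that allow a count and no more, to be read beside the shares of all genes above. Of 11 tested carbon and energy genes, 5 rose and 3 fell in set1htz1sir2 and 6 rose and 2 fell in set1htz1. Of 24 transporters, 4 rose and 6 fell in set1htz1sir2 and 9 rose and 4 fell in set1htz1. Of 4 DNA repair genes (MSH3, RAD24, RAD3 and MGM101) 3 fell in set1htz1sir2 and 3 in set1htz1, at medians of -0.32 and -0.46. Lipid genes numbered 11, of which 6 fell and 1 rose in set1htz1sir2 and 4 fell and 2 rose in set1htz1. Among 22 chromatin and transcription genes, 8 fell and 3 rose in set1htz1sir2 and 6 fell and 1 rose in set1htz1. The 10 cell wall genes had 4 rises and 1 fall in set1htz1sir2 and as many in set1htz1. The 7 genes of nitrogen source use had 4 rises and 1 fall in set1htz1sir2 and 3 rises in set1htz1, and the 8 mating and meiosis genes had 2 falls in set1htz1sir2 and 3 in set1htz1. Of 12 translation genes 2 fell and 1 rose in set1htz1sir2 and 4 fell and 1 rose in set1htz1. Of the 64 tested members without a known role 17 rose and 15 fell in set1htz1sir2 and 21 rose and 9 fell in set1htz1, and 22 of the tested members are ORF names absent from the RefSeq table.

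On a list of silencing and boundary factors, genes fell more often than they rose in set1htz1sir2 and set1htz1. The list held Sir proteins, COMPASS, PAF and SWR1 subunits, telomere and boundary factors, and histone-modifying enzymes such as RPD3 and ESA1. Of its 51 genes, 40 were tested. Among the Sir proteins, SIR4 was not called in set1htz1sir2 (-0.17) or set1htz1 (0.06). SIR2 was not called in set1htz1 (-0.1), and SIR1 and SIR3 were not tested. In set1htz1sir2 18 fell and 1 rose (median -0.26), in set1htz1 23 fell and 1 rose (median -0.37), and in set1 5 fell and 1 rose (median -0.04), counts that include SET1 in these mutants and SIR2 in set1htz1sir2. Over all genes tested 26.3% fell in set1htz1sir2 and 26.3% in set1htz1. H3K4A had 0 limma calls, with 3 lower and 0 higher at an unadjusted p under 0.05. The medians over all genes tested in the mutants were between -0.04 and -0.02. RIF2 is the 1 member of the zone on the list.

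Among the 44 members that could not be tested, ATP1, YCR097WA, ATP15 and YMR316CB had a mean beyond 2-fold in at least 1 mutant. ATP1, a subunit of ATP synthase on IIL, stood at 2.84, 2.5 and 2.84 in set1htz1 (2.73 ± 0.20, SD, n = 3), -0.28, -0.14, -0.28 and -0.07 in H3K4A, and 1.32, 0.86, 1.58 and 1.0 in set1 (1.19 ± 0.32, SD, n = 4), with no value in set1htz1sir2. YCR097WA is an ORF name absent from the RefSeq table that lies at the outer edge of the zone on IIIR, beside HMRA2. It stood at 2.32, 4.48 and 3.06 in set1htz1sir2 (3.29 ± 1.10, SD, n = 3), -0.62, 0.71 and 0.04 in H3K4A, and -0.2, 0.74, -0.79 and -0.12 in set1, with no value in set1htz1. Without the filter on missing values, limma called ATP1 in set1htz1 (adjusted p = 2.9e-09) and set1 (7.4e-06) and YCR097WA in set1htz1sir2 (7.9e-06). ATP15, another subunit of ATP synthase, on XVIL, stood at 1.49, 1.78 and 1.12 in set1htz1sir2 (1.46 ± 0.33, SD, n = 3) and was called there without the filter (limma adjusted p = 0.0002). YMR316CB on XIIIR stood at -1.25, -0.94, -1.12 and -1.36 in set1htz1 (-1.17 ± 0.18, SD, n = 4) and was called there likewise (limma adjusted p = 8.2e-07). Members lacked values in 18 cases in set1htz1sir2, 17 in set1htz1, 11 in H3K4A and 24 in set1.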

How the data were processed

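Log2 ratios of mutant over wild type were deposited by the authors in 1 table of 6282 entries. Per the deposited description, spots were read with GenePix 3.0, those with a regression R2 under 0.75 or low signal were removed, and ratios were normalized to total signal before log2 was taken. The sources used here give no probe sequences, probe strand or genome build, so the ranks come from ORF names, and 280 of the 310 members were found in the RefSeq table.

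Entries of 1 gene were averaged. A linear model with a mean for each mutant and a dye term was fitted over the 16 arrays in limma 3.58.1 (R 4.3.3), and p-values were adjusted by Benjamini-Hochberg over the 5147 genes with at least 3 array values in each mutant. The dye term was called for 47 of the 266 tested members and for 1009 of the 5147 genes tested. Differences between mutants were coefficients of the same fit, and the scripts were tested on simulated data. Members and lists were chosen with earlier results of these data known. Genes named were the 8 largest calls in each direction against wild type, the 6 largest between mutants, the largest call of each arm, members of runs of at least 3 called neighbours, and members called the same way in all mutants or in opposite directions; other genes were added arm by arm after their values were seen. Same-numbered arrays did not pair, with residual correlations from -0.5245 to 0.2928 over 24 pairs. Residuals of set1 arrays correlated at -0.5245 to 0.0991 with arrays of other mutants in the same dye orientation. With arrays in the opposite orientation they correlated at -0.0464 to 0.5379. The dye term was shared by all mutants, and a dye effect of set1 alone was not tested. The standard errors use 1 spread per gene over all mutants and may not match the scatter within set1. Alternatives changed the normalization, filter, dye term, entries, variance model, arrays and rank window.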

Additional observations from a re-analysis of the deposited data

Results flagged for a closer look

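In 7 of 142 sets of arrays 1 array stood apart from the other 3 by Dixon's test. Chance gives about 1 in 20 of sets with 4 values. The 142 include sets with 3 values, such as HAB1 in set1, that could not be flagged. ALD4 had 0.67 on 1 set1htz1sir2 array, beside 0.44 to 0.45 on the others. CRG1 had 1.34 there, beside 0.92 to 0.97. YBL094C had 0.84 there, beside 0.56 to 0.58. YJL213W had -1.36 there, beside -1.0 to -0.94, and YJR146W had -0.45, beside -0.23 to -0.22. YAL058CA had -0.27 on 1 set1htz1 array, beside -0.43 to -0.42, and PTR2 had 0.59 on 1 H3K4A array, beside 0.07 to 0.11.

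The other results listed are the 36 largest differences between mutants that passed limma's test of the difference. For set1htz1sir2 minus set1htz1 they were SST2 (-2.26), DIP5 (-1.82), BRR2 (-1.22), KAR4 (-1.16), SOA1 (-1.07), YJL213W (-0.82), RPO26 (0.62), QCR2 (0.71), QCR7 (0.74), GRE2 (1.08), YOL150C (1.3) and HPF1 (1.4). For set1htz1 minus set1 they were OCA4 (-1.13), DCP1 (-1.01), DIM1 (-0.94), BIO2 (-0.79), SFT2 (-0.79), SPB1 (-0.73), CRG1 (0.84), ALD4 (0.91), FYV5 (0.91), FMP27 (1.03), HSP31 (1.14) and PRB1 (1.28). For H3K4A minus set1 they were YNR064C (-1.24), DAN1 (-0.72), DIM1 (-0.71), YBL094C (-0.70), HPA3 (-0.65), DAL3 (-0.62), SST2 (0.70), YFL057C (0.77), ACS1 (0.84), PTR2 (1.0), ALD4 (1.11) and AAD6 (1.25).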

How the results depend on the processing

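Of 2697 recomputed values of named genes, 2514 kept their direction and call, 183 lost the call and 0 changed sign, and 114 of 162 gene and comparison pairs kept the call throughout. Counts of members called moved more, and the shares of all genes called under the alternatives were not counted beside them. For H3K4A against wild type, 14 became 51 under quantile normalization (33 higher, 64.7%) and 52 with arrays scaled to 1 median absolute deviation (34 higher, 65.4%), 2 with only H3K4A arrays in the fit and 9 for ranks 14 to 23. For H3K4A against set1, 19 became 11 without the dye term, 29 under quantile normalization and 5 with only these groups. For set1htz1 against set1, 49 became 32 without the dye term, 28 under quantile normalization and 28 with scaled arrays. For set1htz1sir2 against set1htz1, 32 became 9 under quantile normalization, 13 with scaled arrays, 81 with array weights and 70 with only these groups. The cause was not tested. For ranks 14 to 23, 40.3% of 129 calls in set1htz1 and 39.3% of 56 in set1 were rises. Leaving out 1 array gave 103 to 119 calls in set1htz1sir2, 99 to 112 in set1htz1, 10 to 17 in H3K4A, 38 to 55 in set1, 17 to 29 for set1htz1sir2 against set1htz1, 30 to 51 for set1htz1 against set1 and 15 to 23 for H3K4A against set1. Arrays with the same number share no label that pairs them; with the replicate block in place of the dye term, calls numbered 130 in set1htz1sir2, 121 in set1htz1, 12 in H3K4A, 46 in set1, 30 for set1htz1sir2 against set1htz1, 38 for set1htz1 against set1 and 16 for H3K4A against set1, and 155 of 162 named calls were kept.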
